A study of Mus musculus with 6 samples.

Results

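The integrated stress response and the unfolded protein response were described here through 39 genes, compared between mouse acute myeloid leukaemias that arose from 2 kinds of blood progenitor. Members were taken by gene symbol. All 39 were found among the 33924 rows of the count table, and all 39 were among the 13406 genes with enough counts to be tested. The first group held 3 libraries from leukaemias started in LSK cells, immature marrow cells that carry Sca-1 and Kit and lack lineage markers (LSK 44, LSK 45 and LSK 46). The second held 3 libraries from leukaemias started in granulocyte-macrophage progenitors (GMP 5, GMP 11 and GMP 19). Both groups carried the MLL-AF9 oncogene, delivered by retrovirus. The transformed cells were grown in lethally irradiated (950 cGy) C57BL/6 mice with normal wild-type marrow as support, and the leukaemia cells taken from the marrow of sick animals were then cultured. The medium was the same for both groups, with 15% serum, 2 mM added glutamine, 20 ng/mL SCF, 10 ng/mL IL-3 and 10 ng/mL IL-6. No library was labelled as treated with a stress agent or an inhibitor, so all values are of cells under routine culture.

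Nothing in the labels gives the animals' ages or ties the libraries to separate mice, clones or transductions. The p-values thus reflect no more than the scatter among these 6 libraries, part of which may be technical. Total counts ran from 16640929 to 33885428 per library. Sums of marker genes for other cell types were low for B and plasma cells (36.7 to 43.0 CPM, counts scaled to the same total in each library, in LSK-derived and 6.02 to 27.5 CPM in GMP-derived libraries) and for stroma (1.17 to 6.52 and 14.5 to 36.6 CPM). The groups did not overlap in either sum. Of 12 B and plasma cell markers, Pax5, Ms4a1 and Pou2af1 had 0 counts in every library, and of 10 stromal markers Col1a2, Dcn and Lum had 0. The remaining markers of both lists had counts. The sum of 9 genes of blood cell and myeloid progenitor identity was 2135 to 3099 CPM in LSK-derived and 1430 to 3578 CPM in GMP-derived libraries. The overlap of the sums does not hold for each gene. In the test given below, 2 of the 9 were higher in LSK-derived libraries and 2 were lower (44.4% called, beside 25.7% of all tested genes). The 10 mature neutrophil markers, none at 0 throughout, had sums (CPM) of 117 in LSK 44, 179 in LSK 45 and 49.7 in LSK 46, and of 18.97 in GMP 5, 88.0 in GMP 11 and 588 in GMP 19. T and NK cell markers (11 genes, Cd3e, Trbc2 and Ncr1 at 0) summed to 22.1 to 58.4 CPM in LSK-derived and 2.54 to 3.13 CPM in GMP-derived libraries, and erythroid and megakaryocyte markers (11 genes, none at 0) to 17.1 to 97.7 and 4.13 to 14.1 CPM. Macrophage markers (10 genes) summed to 734 to 1285 and 478 to 1019 CPM, and mast cell, basophil and eosinophil markers (12 genes, Tpsab1 and Ear1 at 0) to 58.0 to 102 and 76.6 to 305 CPM. The part of these cells in the results below was not tested. In such bulk samples, fewer cells of a type and less RNA per cell cannot be told apart.

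The integrated stress response begins with kinases that phosphorylate the translation factor eIF2alpha when amino acids are short (GCN2, encoded by Eif2ak4) or when unfolded proteins collect in the endoplasmic reticulum (PERK, encoded by Eif2ak3). Phosphorylation slows most protein synthesis but favours translation of the mRNA of ATF4, a transcription factor that raises genes for amino acid synthesis and import. Because ATF4 is controlled largely at translation, its mRNA level is not a measure of its protein. The unfolded protein response has further sensors, ATF6 and IRE1 (encoded by Ern1), which raise chaperones and degradation factors of the endoplasmic reticulum through cleaved ATF6 and through XBP1. Both pathways are known to be active in blood stem cells, where they bear on survival under stress.

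Some genes of the 2 arms carry different sequence motifs at their starts. RefSeq promoters (GRCm38.p6, 250 bases before to 50 after the gene start) matched 35 of the 39 members by symbol, 4 of them with 2 starts. Slc7a5, Slc1a5, Atf6 and Hyou1 had no entry. The windows below are shown because they carry a match to the CARE motif, which ATF4 is known to bind with C/EBP partners, or to the ERSE motif, which ATF6 binds with NF-Y. CARE was searched as TGATGNAA and ERSE as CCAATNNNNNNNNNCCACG, both on either strand. A shorter relative, ERSE-II, was searched as ATTGGNCCACG. Capitals mark the matches, and each window reads 5′ to 3′ on the strand of the gene.
Asns: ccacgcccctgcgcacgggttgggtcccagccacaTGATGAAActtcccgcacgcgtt
Slc7a11: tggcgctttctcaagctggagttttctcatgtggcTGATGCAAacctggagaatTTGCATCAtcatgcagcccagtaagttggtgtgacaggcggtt
Chac1: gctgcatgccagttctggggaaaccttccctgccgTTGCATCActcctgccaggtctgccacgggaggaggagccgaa
Pycr1: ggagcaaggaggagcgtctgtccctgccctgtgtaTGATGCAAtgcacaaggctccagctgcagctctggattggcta
Hspa5: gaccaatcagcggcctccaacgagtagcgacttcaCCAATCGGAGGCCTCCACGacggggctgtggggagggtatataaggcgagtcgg
Hsp90b1: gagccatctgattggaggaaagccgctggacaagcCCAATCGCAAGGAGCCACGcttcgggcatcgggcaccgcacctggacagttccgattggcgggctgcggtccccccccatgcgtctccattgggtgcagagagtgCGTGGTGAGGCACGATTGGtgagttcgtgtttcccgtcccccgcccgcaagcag
Creld2: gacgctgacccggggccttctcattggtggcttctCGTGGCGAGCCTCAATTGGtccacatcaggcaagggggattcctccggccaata
Herpud1: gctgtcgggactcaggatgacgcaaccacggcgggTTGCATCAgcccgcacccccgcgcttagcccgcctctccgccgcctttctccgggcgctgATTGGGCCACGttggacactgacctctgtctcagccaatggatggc

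On GRCm38.p6 the 4 windows with CARE alone lie upstream of the gene start of Asns (chr6:7693210-7693267, minus strand), Slc7a11 (chr3:50443618-50443714, minus strand), Chac1 (chr2:119351014-119351091, plus strand) and Pycr1 (chr11:120643809-120643886, minus strand). Those with ERSE lie upstream of Hspa5 (chr2:34771990-34772078, plus strand), Hsp90b1 (chr10:86705498-86705691, minus strand) and Creld2 (chr15:88819485-88819573, plus strand). The Herpud1 window (chr8:94386282-94386422, plus strand) held both a CARE and an ERSE-II match. The counts were made on the build mm9, and no coordinate was carried from one build to the other.

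An ERSE match was found in 7 of the 11 ER chaperone genes with a promoter entry (63.6%) and in none of the 11 amino acid genes, against 37 of all 27025 genes with a promoter (0.137%). The 7 were Hspa5, Hsp90b1, Calr, Canx, Pdia6, Dnajc3 and Creld2, and Hsp90b1 had 2 matches. A CARE match was found in 3 of the 11 amino acid genes (27.3%; Asns, Slc7a11 and Pycr1) and in none of the 11 chaperone genes, against 4.51% of all genes. Chac1 and Trib3 also had one, in Trib3 14 bases after the gene start. ERSE-II occurred in Herpud1 alone of the members and in 0.0444% of all genes. In all, 8 patterns were searched, and the motifs and promoters shown were chosen after the matches were seen. The shares are thus a description and not a test of the arms. UPRE (TGACGTGG) matched no member and 0.714% of all genes, and CRE (TGACGTCA) matched Ppp1r15a alone and 2.03% of all genes. The other 3 were parts or looser forms of those above. CARE in the form TTGCATCA matched 4 members (1.03% of all genes), ERSE without its last base 9 of 11 chaperone genes (0.429%), and CCACG alone 10 of 11 chaperone and 9 of 11 amino acid genes (35.5%). Outside these nested forms, no match of one motif overlapped a match of another in a member. A match is a description of these letters and not a measure of binding.

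**Figure D1:**
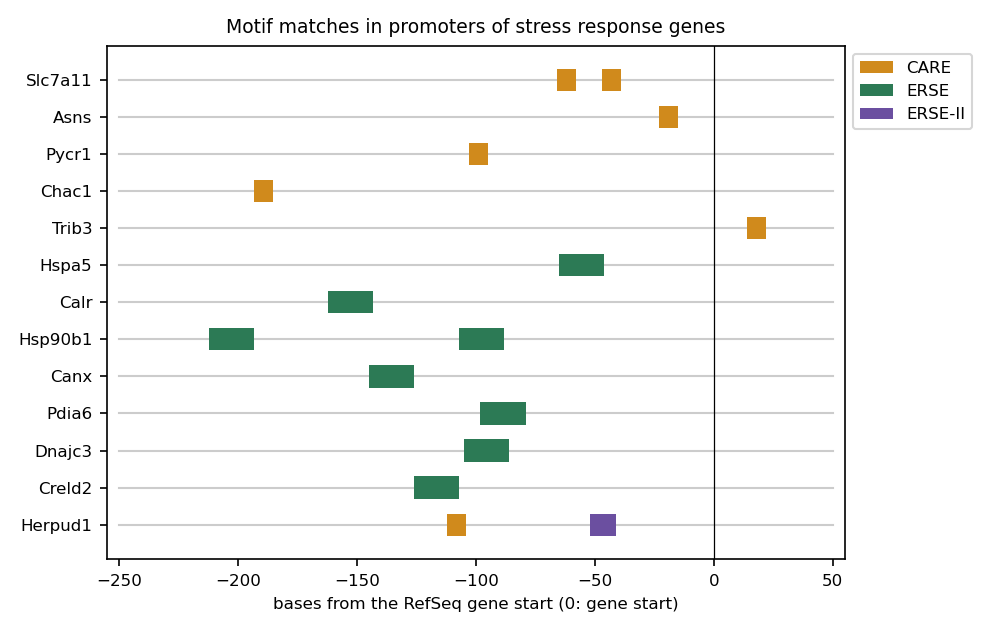
Positions of CARE, ERSE and ERSE-II matches in the promoters of the 13 members that hold one, in bases from the RefSeq gene start (horizontal axis), with 1 line per gene from 250 bases before to 50 bases after the start. ERSE matches lie in 7 ER chaperone genes and CARE matches in amino acid and regulatory genes, and Herpud1 has both a CARE and an ERSE-II match.

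Of the 39 members, 9 were lower and 1 was higher in the LSK-derived libraries by edgeR's quasi-likelihood test with Benjamini-Hochberg adjusted p under 0.05, and 29 did not pass. The share called, 25.6%, stood beside 25.7% of all tested genes, and a share this near the background is not a result about the members. The share called lower was 23.1%, beside 13.9% of all tested genes, and the single higher member stood beside 11.8%. The median log2 fold change over the members was -0.12, beside 0.01 over all tested genes. The groups did not overlap in 14 of the 39 members, a share below the 45.4% found over all tested genes. Most differences were small, and 1 of the 39 members, Atf5, passed a test against a minimum change of 1.5-fold, beside 7.48% of all tested genes. Atf4 and Atf5 were called in all 6 fits that left out 1 library. The number of members called in those fits ran from 3 (without LSK 46) to 8 (without LSK 45), out of 39. It was 4 without LSK 44, 5 without GMP 11, 6 without GMP 19 and 7 without GMP 5. In the same order of fits, 12.8%, 21.8%, 13.3%, 18.5%, 17.2% and 25.3% of all tested genes were called. Each log2 fold change given here subtracts the GMP-derived from the LSK-derived level and carries an approximate standard error.

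**Figure D2:**
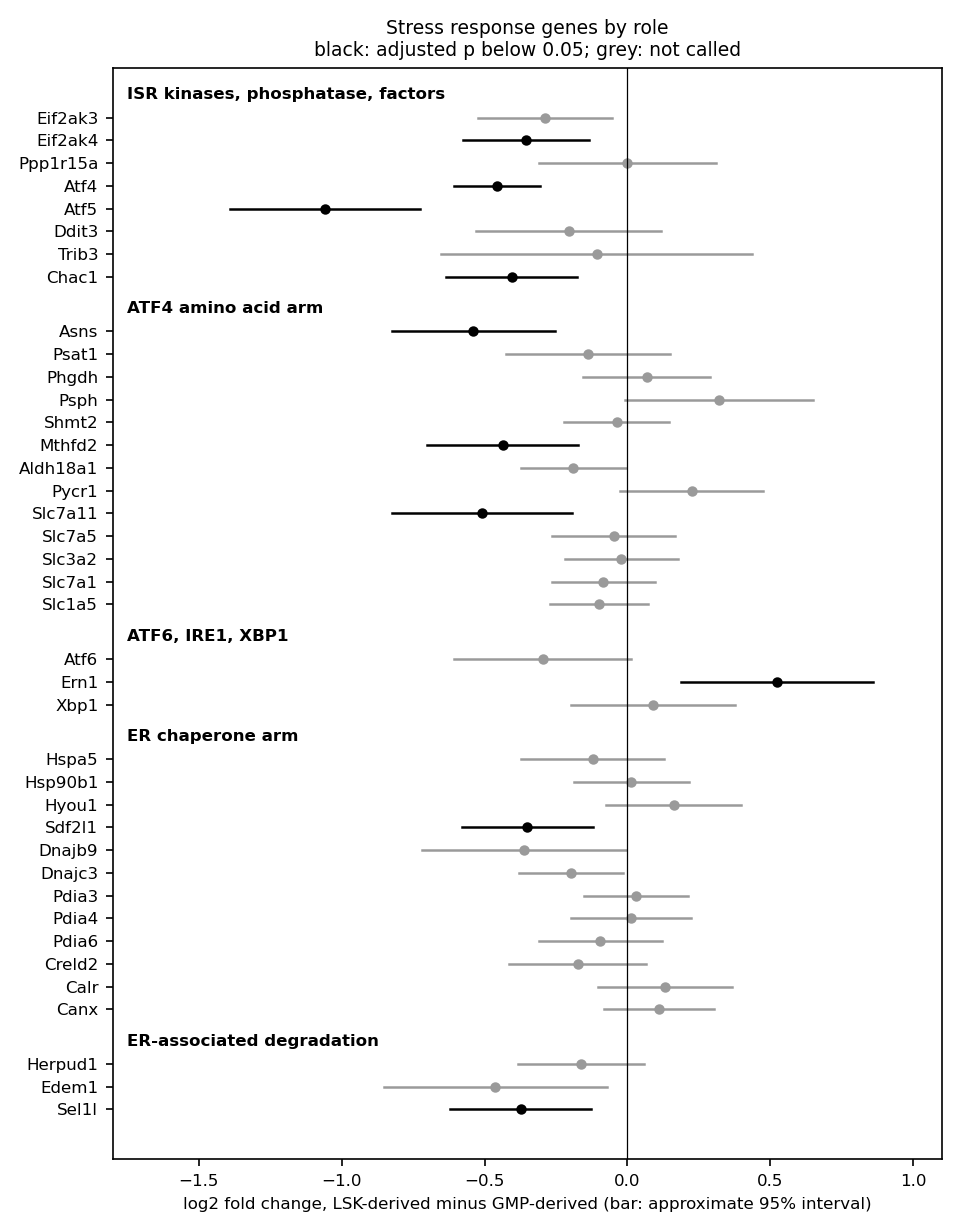
Log2 fold change (LSK-derived minus GMP-derived, horizontal axis) of each of the 39 genes with its approximate 95% interval from 3 libraries in each group, ordered by role. Black marks the 10 genes called at an adjusted p below 0.05 and grey the other 29; Atf5 lies farthest from 0 at -1.06 and Ern1 is the single called gene on the higher side at 0.52.

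Of 8 regulators of the integrated stress response, 4 were lower in the LSK-derived libraries (50%, beside 13.9% of all tested genes) and none was higher, with a median log2 fold change of -0.32. The transcription factor genes Atf4 and Atf5 were the 2 members that stayed called whichever library was left out. The level of Atf4 in CPM was 507 in LSK 44, 478 in LSK 45 and 487 in LSK 46, and 703 in GMP 5, 672 in GMP 11 and 643 in GMP 19. Later values keep this order of libraries. The groups did not overlap, and the spread within each was small beside the gap. The difference was 1.37-fold (log2 fold change -0.46 ± 0.06, adjusted p = 0.00384, at most 0.0237 without a library). Within the GMP-derived group Atf4 was highest in GMP 5, the library with the lowest sum of neutrophil markers (18.97 CPM), and lowest in GMP 19, the one with the highest (588 CPM). In the LSK-derived group Atf4 was highest in LSK 44, while the lowest neutrophil sum was in LSK 46 (49.7 CPM). Its lowest level there was in LSK 45, the library with the highest sum of that group (179 CPM). Atf5 ran the other way in the GMP-derived group, lowest in GMP 5 and highest in GMP 19. A link to these markers was not tested. Atf5, a relative of ATF4 that is likewise controlled at translation, was at 45.003, 34.0 and 41.4 CPM in the LSK-derived and 71.7, 83.5 and 94.9 CPM in the GMP-derived libraries. It was the member with the largest change, 2.08-fold lower in the LSK-derived libraries, with an interval of 1.65 to 2.62-fold (log2 fold change -1.06 ± 0.14, adjusted p = 0.00326, at most 0.0165 without a library). In the reference annotation, 82 bases (4.11% of its exons) of Atf5 overlap exons of Nup62 and Il4i1 on the opposite strand, and without a known strand setting such reads cannot be told apart.

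Genes downstream of ATF4 that regulate the response did not all show this difference. Chac1, which encodes a glutathione-degrading enzyme, was at 14.1, 16.0 and 15.5 CPM against 20.7, 20.3 and 19.5 CPM, with no overlap. The LSK-derived level was 1.32-fold lower (log2 fold change -0.40 ± 0.10, adjusted p = 0.0240), a call lost without LSK 44, LSK 46 or GMP 11 (up to 0.0874). Ddit3, which encodes the pro-apoptotic factor CHOP, was low in both groups, at 9.98, 12.5 and 11.996 CPM against 12.95, 12.3 and 14.6 CPM. The groups overlapped (log2 fold change -0.21 ± 0.14, adjusted p = 0.308), and the interval ran from 1.08-fold higher to 1.44-fold lower. Exons of Ddit3 share 68 bases with the abundant gene Mars on the other strand. Trib3, a pseudokinase gene that restrains ATF4 and CHOP, ranged from 11.9 CPM in LSK 44 to 23.1 CPM in LSK 46, a range that took in all 3 GMP-derived libraries (17.2 to 20.4 CPM, adjusted p = 0.765). Ppp1r15a, the stress-induced phosphatase subunit GADD34 that reverses eIF2alpha phosphorylation, was at 9.74 to 12.2 against 10.6 to 11.6 CPM (adjusted p = 0.995).

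Among the kinases, Eif2ak4 (GCN2) was at 42.8, 43.2 and 47.6 CPM in the LSK-derived and 62.8, 52.3 and 55.7 CPM in the GMP-derived libraries. It was 1.28-fold lower in the LSK-derived group (log2 fold change -0.35 ± 0.09, adjusted p = 0.0329), and of the fits without a library only that without GMP 11 kept the call (up to 0.116, without LSK 44, LSK 45, LSK 46, GMP 5 or GMP 19). Eif2ak3 (PERK) was at 48.3, 51.9 and 43.1 CPM against 54.2, 57.2 and 63.5 CPM. Its groups did not overlap either, but it missed the threshold (-0.29 ± 0.10 on the log2 scale, adjusted p = 0.0737). Of the alternatives, only limma voom with sample weights called Eif2ak3 (0.0395). Other genes of the eIF2 machinery, from a list of 14 that were all tested, were called in 2 cases, 1 in each direction (14.3%, below the 25.7% of all tested genes). Gcn1l1, which encodes the GCN2 activator GCN1, was 1.28-fold higher (162, 140 and 157 against 111, 133 and 115 CPM, adjusted p = 0.0340; up to 0.114 without LSK 44, LSK 46, GMP 5 or GMP 19). Ppp1r15b, the constitutive eIF2alpha phosphatase subunit, was 1.151-fold lower (adjusted p = 0.0470), and no fit that left out a library called it (0.0793 to 0.181). The fitted values of GCN2 and of its activator thus pointed opposite ways.

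**Figure D3:**
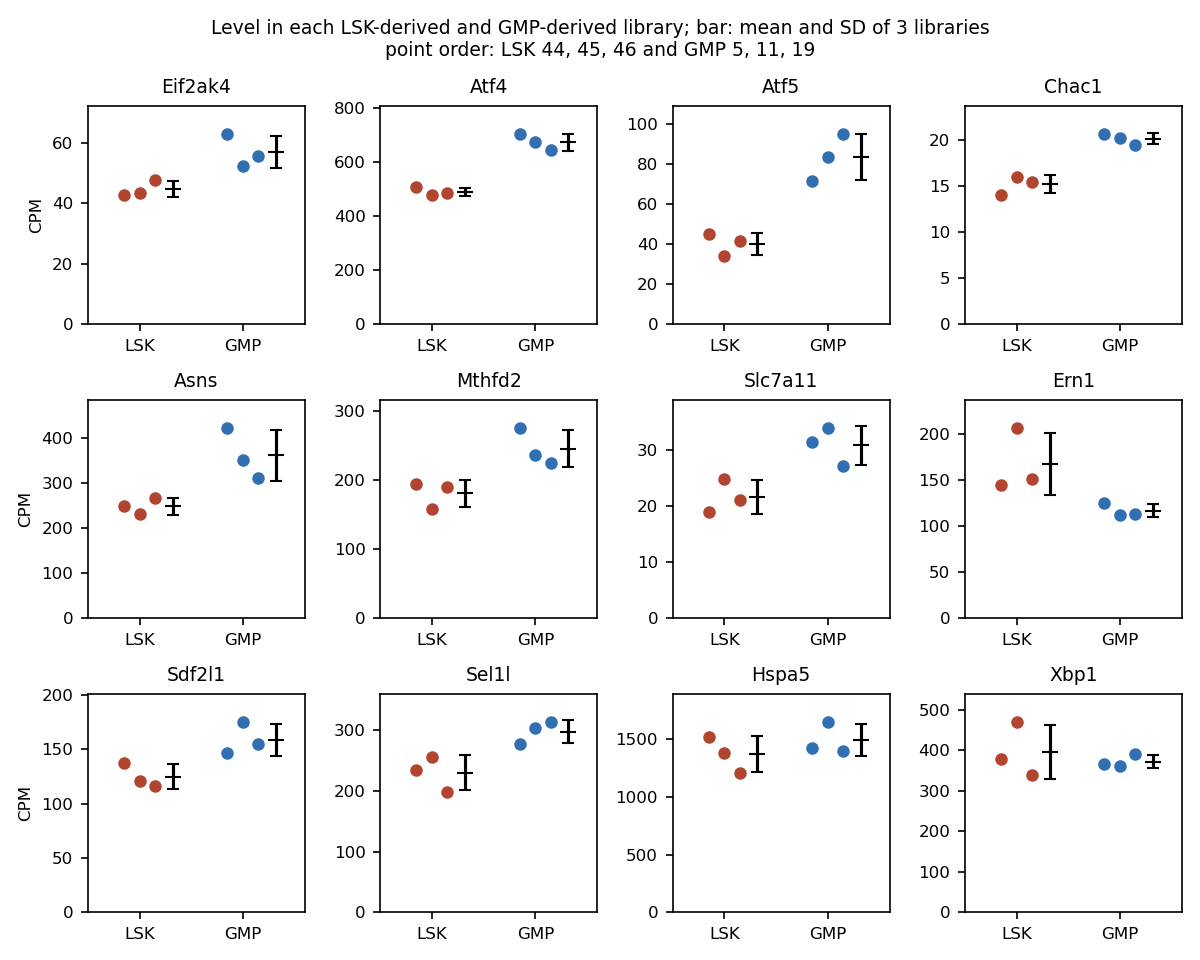
CPM (vertical axes, from 0) in each library for the 10 called members and for Hspa5 and Xbp1, which did not pass; points are libraries in the order LSK 44, 45, 46 and GMP 5, 11, 19, and the bars give the mean and SD of 3 libraries. The LSK-derived points lie below the GMP-derived ones for 9 genes and above them for Ern1, while those of Hspa5 and Xbp1 overlap.

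In the amino acid arm, 3 of 13 genes were lower in the LSK-derived libraries (23.1%), none was higher and 10 did not pass, with a median log2 fold change of -0.08. Over all tested genes 25.7% were called and 13.9% were lower, so the arm's share called was near the background. Asns, which makes asparagine and is a classic ATF4 target with the CARE match shown above, was at 248, 230 and 267 CPM against 421, 351 and 310 CPM. The GMP-derived values were the more variable, and the groups did not overlap. The difference was 1.45-fold (log2 fold change -0.54 ± 0.12, adjusted p = 0.0193), and the call was lost without LSK 44 or LSK 45 (up to 0.0726). Slc7a11, the cystine importer subunit with 2 CARE matches, was at 19.1, 24.9 and 21.1 CPM against 31.6, 34.0 and 27.1 CPM. It was 1.42-fold lower (log2 fold change -0.51 ± 0.13, adjusted p = 0.0319), a call lost without LSK 44, LSK 46, GMP 5 or GMP 11 (up to 0.106). Mthfd2, a mitochondrial folate enzyme, was at 195, 158 and 190 CPM against 275, 236 and 224 CPM. It was 1.35-fold lower (log2 fold change -0.44 ± 0.11, adjusted p = 0.0295) and was called in 1 of the 6 fits without a library, the one without GMP 19 (up to 0.0733 without LSK 44, LSK 45, LSK 46, GMP 5 or GMP 11).

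The serine synthesis enzymes did not pass. Phgdh, which takes the first step, was at 191 to 228 CPM in LSK-derived and 187 to 219 CPM in GMP-derived libraries (0.07 ± 0.09 on the log2 scale), with an interval from 1.11-fold lower to 1.22-fold higher. Psat1, the second step and the most abundant member of the arm per kilobase of exon, was at 753 to 843 and 739 to 1020 CPM (-0.14 ± 0.12). Psph, the last step, had a positive value (51.7 to 60.4 against 39.3 to 55.004 CPM, log2 fold change 0.32 ± 0.14, adjusted p = 0.137, called at 0.0273 without GMP 11). Psph shares 452 bases, 10.4% of its exons, with Cct6a on the opposite strand. Shmt2, which turns serine into glycine in mitochondria, was at 452 to 494 against 456 to 530 CPM (-0.04 ± 0.08). The proline enzymes pointed apart without passing. Aldh18a1 was at 208 to 221 against 222 to 261 CPM (-0.19 ± 0.08, adjusted p = 0.117), and Pycr1, which has a CARE match, at 32.9 to 40.4 against 28.5 to 32.2 CPM (0.22 ± 0.11, adjusted p = 0.163).

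The other amino acid transporters did not pass. Slc7a5, the large neutral amino acid exchanger, was at 356 to 394 against 346 to 417 CPM (-0.05 ± 0.09). Slc3a2, the chain that SLC7A5 and SLC7A11 both pair with, was at 247 to 273 against 237 to 278 CPM (-0.02 ± 0.08). Slc7a1, which imports arginine and lysine, was at 311 to 345 against 326 to 365 CPM (-0.08 ± 0.08), and Slc1a5, which imports glutamine, at 288 to 313 against 302 to 342 CPM (-0.10 ± 0.07). For these 4 transporters the approximate 95% intervals lay between 1.21-fold lower (Slc1a5) and 1.13-fold higher (Slc3a2). Of the 3 amino acid genes with a CARE match, Asns and Slc7a11 were lower, and Pycr1 had a positive value and did not pass. Over all tested genes 13.9% were called lower. Among the other members with a CARE match, Chac1 was lower, and Trib3 and Herpud1 did not pass. A link between motif and call was not tested.

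Of the sensors in the membrane of the endoplasmic reticulum, Ern1 (IRE1) was the single member called higher. It was at 144, 206 and 151 CPM in the LSK-derived libraries, with LSK 45 well above the others, and at 125, 112 and 113 CPM in the GMP-derived ones. The difference was 1.44-fold (log2 fold change 0.52 ± 0.14, adjusted p = 0.0362), and the call was lost without LSK 46, GMP 5, GMP 11 or GMP 19 (up to 0.102). Xbp1, whose mRNA IRE1 splices, was at 378, 469 and 339 CPM against 365, 360 and 391 CPM. Its groups overlapped (0.09 ± 0.12 on the log2 scale, adjusted p = 0.630). Counts per gene do not separate spliced from unspliced Xbp1. Atf6 was at 125, 138 and 114 CPM against 127, 174 and 161 CPM (log2 fold change -0.30 ± 0.13, adjusted p = 0.141). It was called without GMP 5 (0.0266) and by limma voom with sample weights (0.0410). Of 14 tested genes from a list of 16 other sensors and factors, 1 was higher and 1 lower (14.3% called, below the 25.7% of all tested genes). Creb3l1, which encodes a membrane-bound factor of the ATF6 family, was low in every library yet 3.78-fold lower in the LSK-derived ones (2.90, 2.55 and 2.33 against 9.96, 9.56 and 9.88 CPM, adjusted p = 0.000680). Nfya, a subunit of the NF-Y complex that binds the CCAAT part of ERSE, was 1.38-fold higher (165, 162 and 167 against 125, 116 and 118 CPM, adjusted p = 0.00314).

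In the ER chaperone arm 1 of 12 genes was called, Sdf2l1, and the median log2 fold change was -0.04. The share called, 8.33%, was below that of all tested genes (25.7%). Sdf2l1, a partner of chaperone complexes, was at 137, 120 and 116 CPM against 146, 175 and 155 CPM. The LSK-derived level was 1.27-fold lower (log2 fold change -0.35 ± 0.10, adjusted p = 0.0389), a call lost without LSK 45, LSK 46, GMP 11 or GMP 19 (up to 0.137). Hspa5, which encodes BiP, the main chaperone of the compartment and the usual readout of its stress, was at 1518, 1377 and 1208 CPM against 1425, 1648 and 1393 CPM. The groups overlapped (log2 fold change -0.12 ± 0.11, adjusted p = 0.437), and the interval ran from 1.29-fold lower to 1.09-fold higher. Hsp90b1, which encodes GRP94, was at 955 to 1124 against 959 to 1089 CPM (0.01 ± 0.08), and Hyou1, which exchanges nucleotides on BiP, at 447 to 559 against 430 to 492 CPM (0.16 ± 0.10). Exons of Hsp90b1 share 415 bases with 1810014B01Rik on the opposite strand, a gene at no more than 9.01 CPM.

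The disulfide isomerase genes did not pass. Pdia3 was at 935 to 1078 against 945 to 1032 CPM (0.03 ± 0.08), Pdia4 at 260.4 to 320.2 against 289 to 298 CPM (0.01 ± 0.09) and Pdia6 at 599.6 to 684 against 628 to 757 CPM (-0.09 ± 0.09). Creld2, another isomerase, was at 50.4 to 62.2 against 58.9 to 67.0 CPM (-0.17 ± 0.10). The calcium-binding lectin chaperones Calr (2659 to 3067 against 2309 to 2897 CPM) and Canx (1043 to 1184 against 960 to 1113 CPM) had positive values that did not pass (0.13 ± 0.10 and 0.11 ± 0.08). Of the partners of BiP, the co-chaperone genes Dnajc3 and Dnajb9 had negative values, which did not pass either. Dnajc3, which also inhibits PERK, was at 165 to 192 against 206 to 212 CPM (-0.20 ± 0.08, adjusted p = 0.103), and Dnajb9 at 22.7 to 34.2 against 33.8 to 36.6 CPM (-0.36 ± 0.15, adjusted p = 0.124; called at 0.0185 without LSK 45). None of the 7 chaperone genes with an ERSE match was called, beside 25.7% of all tested genes. The called gene of the arm, Sdf2l1, had no match to that motif in its window. With so few genes, no link between motif and call can be read from this, and none was tested. Per kilobase of exon, Calr (953), Hspa5 (338), Pdia3 (322) and Hsp90b1 (258) were the most abundant members as mean CPM, followed by Atf4 (247), and Slc7a11 (1.89) was the least.

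The 3 members of ER-associated degradation, which returns misfolded proteins to the cytosol, had negative values. Of them 1 was called lower (33.3%), beside 13.9% of all tested genes, and 3 genes are too few to read this share. Sel1l, the scaffold of the HRD1 ubiquitin ligase, was at 235, 255 and 199 CPM against 276, 303 and 313 CPM. The LSK-derived level was 1.30-fold lower (log2 fold change -0.37 ± 0.10, adjusted p = 0.0400), a call lost without LSK 44, LSK 46, GMP 11 or GMP 19 (up to 0.108). Edem1, which extracts misfolded glycoproteins, was at 273, 374 and 246 CPM against 366, 448 and 416 CPM, and overlapped only through LSK 45. It did not pass (-0.46 ± 0.16, adjusted p = 0.0828), and was called without LSK 45 (0.0116), by DESeq2 (0.0213) and by limma voom with sample weights (0.0203). Herpud1 was at 116 to 126 against 121 to 151 CPM (-0.16 ± 0.09, adjusted p = 0.238). Of 20 other degradation genes, all tested, 5 had positive and 15 negative values, and 6 were lower and none was higher (30.0%, beside 13.9% of all tested genes called lower). Among them Ubxn4, which anchors the p97 ATPase at the membrane, was 1.28-fold lower (115, 111 and 111 against 150, 138 and 143 CPM, adjusted p = 0.00804). The ubiquitin-conjugating enzyme gene Ube2g2 was 1.19-fold lower (adjusted p = 0.0424, called in no fit without a library, 0.0685 to 0.132).

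The contrast of the 2 arms was set out per library, as the mean over each arm's genes of log2 CPM centred on the gene's mean over the 6 libraries. The amino acid arm was at -0.04, -0.12 and -0.00247 in LSK 44, LSK 45 and LSK 46 and at 0.11, 0.13 and -0.07 in GMP 5, GMP 11 and GMP 19. The chaperone arm was at 0.06, 0.01 and -0.18 and at 0.03, 0.11 and -0.03 in the same order. Both arms overlapped between groups, with group differences of -0.11 and -0.07 on the log2 scale. The amino acid value minus the chaperone value was -0.10, -0.13 and 0.17 in the LSK-derived and 0.08, 0.02 and -0.04 in the GMP-derived libraries. The mean of this difference was -0.02 ± 0.17 (SD, n = 3) and 0.02 ± 0.06 (SD, n = 3), a gap smaller than the spread of the LSK-derived libraries. No test was run on these scores.

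**Figure D4:**
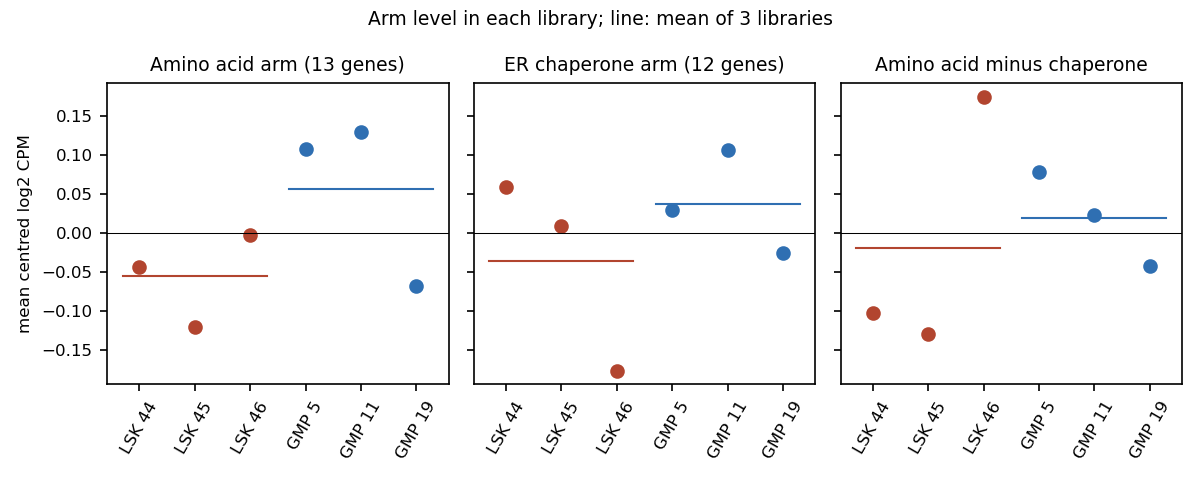
Mean centred log2 CPM (vertical axis) of the amino acid arm, of the ER chaperone arm and of their difference in each of the 6 libraries (horizontal axis), with a line at the mean of each group of 3. Groups overlap in all 3 panels, and LSK 46 has the lowest chaperone value (-0.18) and the highest difference (0.17).

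In the LSK-derived group the 2 arms were low in different libraries, and in the GMP-derived group GMP 19 was the lowest in both. LSK 45 was the lowest of the 3 LSK-derived libraries in 11 of the 13 amino acid genes, whereas LSK 46 was the lowest in 11 of the 12 chaperone genes. LSK 45 was the highest of its group in all 3 degradation genes and in Ern1, Xbp1 and Atf6. Among the GMP-derived libraries, GMP 19 was the lowest in 10 amino acid genes and in 7 chaperone genes, and GMP 11 was the highest in 9 chaperone genes. Genes of 1 library share its scaling and culture, so these counts describe the libraries and were not tested.

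Wider lists of the same pathways were read from the same fit. Of 25 tested genes from a list of 27 other genes known as ATF4 or stress response targets, 6 were lower, 2 were higher and 17 did not pass (32.0% called, beside 25.7% of all tested genes). The share called lower was 24.0%, beside 13.9% of all tested genes. Negative values were found in 17 genes and positive ones in 8, with a median log2 fold change of -0.27, beside 0.01 over all tested genes. The 3 with the smallest p-values encode transcription factors and were lower. Jdp2 was at 17.9, 16.3 and 20.7 against 36.1, 37.8 and 42.3 CPM (2.11-fold, adjusted p = 0.00172), Cebpb at 10.8, 8.36 and 8.62 against 19.2, 27.3 and 29.1 CPM (2.73-fold, adjusted p = 0.00308), and Atf3 at 0.423, 0.589 and 0.625 against 2.13, 2.17 and 2.70 CPM (4.198-fold, adjusted p = 0.00270). The 2 higher genes, named after their values were seen, were Cbs, for cystathionine synthesis (2.24, 1.49 and 2.58 against 0.574, 0.356 and 0.586 CPM, adjusted p = 0.00636), and the amino acid transporter gene Slc43a1 (12.9, 16.4 and 13.2 against 4.92, 7.63 and 7.92 CPM, adjusted p = 0.0137). The ATF4 target list thus held called changes in both directions, more of them lower than higher. Of the genes named, Atf3 and Cbs were low in every library, with 254 and 183 counts over all 6.

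Of 20 cytosolic aminoacyl-tRNA synthetase genes, several of which are ATF4 targets, 3 were lower (15.0%, near the 13.9% of all tested genes) and 17 did not pass, with a median log2 fold change of 0.01. Cars (102, 106 and 108 against 146, 136 and 135 CPM, 1.32-fold, adjusted p = 0.00599) and Aars (368, 359 and 363 against 447, 456 and 463 CPM, 1.2525-fold, adjusted p = 0.00786) were called in every fit without a library. Sars was called in none of those fits (1.18-fold, adjusted p = 0.0435, 0.0595 to 0.147 without a library). Of 17 tested one-carbon and amino acid enzyme genes from a list of 18, 6 were higher and 2 lower (47.1% called, beside 25.7% of all tested genes). Mtr, the methionine synthase gene, was 1.27-fold higher (adjusted p = 0.0181) and Ahcy, which clears S-adenosylhomocysteine, 1.498-fold higher (128, 107 and 139 against 86.6, 91.7 and 71.5 CPM, adjusted p = 0.0176). Both lost their call without LSK 44 or LSK 46 (up to 0.0717 and 0.0663).

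Of 30 other genes for folding and translocation in the endoplasmic reticulum, 5 were lower, 2 were higher and 23 did not pass (23.3% called, near the 25.7% of all tested genes). Sec24d, a coat protein gene of vesicles that leave the compartment, was 1.87-fold lower (46.1, 53.6 and 37.7 against 89.7, 84.7 and 83.2 CPM, adjusted p = 0.00400). Fkbp11, a prolyl isomerase gene, was 1.41-fold lower (adjusted p = 0.0121), and Sec61b, a translocon subunit gene, 1.197-fold lower (adjusted p = 0.0268; up to 0.111 without LSK 44, LSK 46 or GMP 11). Of 14 tested genes from a list of 16 cytosolic and mitochondrial heat shock genes, 2 were higher (14.3%, near the 11.8% of all tested genes), none was lower and 12 did not pass, with a median of 0.20. Dnaja1, an HSP70 co-chaperone gene, was 1.42-fold higher (146, 137 and 138 against 102, 99.6 and 94.2 CPM, adjusted p = 0.00266). Hsp90ab1 was 1.32-fold higher (5625, 4851 and 5308 against 4278, 4246 and 3444 CPM, adjusted p = 0.0310; up to 0.107 without LSK 44, LSK 46, GMP 11 or GMP 19).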

How the data were processed

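RNA from 3 LSK-derived and 3 GMP-derived libraries was extracted with TRIzol and made into libraries with a TruSeq RNA kit, per the labels' protocols. Values are whole-number counts for each gene symbol, not normalized, in a single table deposited by the authors. The submitters' processing notes name STAR 2.4, HTSeq 0.6.1, DESeq2 and mm9, with no role or order. Annotation and strand setting: not given in the sources used here.

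The test was that of edgeR 4.0.16 under R 4.3.3 (filterByExpr, TMM, robust glmQLFit, glmQLFTest, 6 libraries, no covariate). P-values were adjusted by Benjamini-Hochberg over 13406 genes and a gene was called below 0.05. CPM values use TMM-scaled totals of tested genes, and marker sums use unscaled totals of all rows. The approximate SE divides the log2 fold change by the root of its F statistic, and the 95% interval multiplies it by the t quantile at the test's degrees of freedom. Arm values use log2 CPM with a prior count of 2. Exon lengths and overlaps come from GENCODE M21 (GRCm38), which is not the counts' build. Alternatives were RLE and upper-quartile scaling, no filter, DESeq2 1.42.0, limma 3.58.1 voom with and without sample weights, no robust estimation, a minimum of 1.5-fold, and leaving out each library. The steps were tested on simulated data, where they recovered large changes and seldom called the smallest ones. The share of false calls there was somewhat above the nominal rate, so calls near the threshold are to be read with that in mind. Far fewer genes were changed in the simulation than were called in these data, so its share of false calls need not hold here.

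The members, gene lists and tests were chosen with earlier results of these data known, and the promoter search was added after the design was written. Values in each library are given for called members and for Atf4, Ddit3, Asns, Hspa5, Xbp1, Eif2ak3, Eif2ak4, Ern1 and Atf6, and other members by range, or in each library where a single one decides the call (Edem1). From each of 8 further pathway lists, up to 3 called genes with the smallest adjusted p were named. Some genes that this rule names are not reported here. Gene symbols absent from the table were matched through RefSeq synonyms.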

Additional observations from a re-analysis of the deposited data

How the results depend on the processing

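The 10 called members kept their sign in every alternative. Scaling, filter and test changed the number called little (10 to 13 members, and 3296 to 4226 of all genes). A minimum change of 1.5-fold left 1 of the 39 members and 1003 genes (7.48% of all tested genes). Leaving out 1 library gave 3 to 8 of the 39 members and 1750 to 3467 genes (12.8% to 25.3% of all tested genes). The median log2 fold change stayed between -0.13 and -0.04 in the amino acid arm, and between -0.10 and 0.02 in the chaperone arm, and the difference between the arms between -0.14 and 0.02, so the signs of the last 2 were not fixed when a library was left out. With 3 libraries per group, 8 of the 10 called members lost their call in at least 1 fit without a library. No paired analysis was possible because the groups share no replicate number.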
